A study of Rattus norvegicus with 46 samples.

Results

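The alpha subunits of heterotrimeric G proteins were read in rat frontal lobe 96 h after vehicle or 1 dose of chlorpyrifos (CPF). CPF is an insecticide of the organophosphate class that, once activated in the body, blocks acetylcholinesterase. Members were the probe sets of the array whose only symbol in the platform table is Gnai1, Gnai2, Gnai3, Gnao1, Gnas, Gnaq, Gna11, Gnaz or Gnal. Of these 9 genes, 7 had such a probe set, out of 10411 genes so represented, and together they had 10 probe sets. Gnai3 and Gnal had none: 2 probe sets carry Gnai1 and Gnai3 jointly and were not read. Of the 10 probe sets, 9 passed the filter on low values, and Gnas 1390263_at did not, lying at the lowest value the scale allows in 13 of 39 arrays.

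All animals were male F344 rats aged 11 to 12 weeks, an inbred strain, and each array, whose title numbers its animal, held RNA from about 30 mg of frontal lobe of 1 animal. Experiment A used vehicle (3 arrays) and doses of 1 (3), 10 (5) and 50 mg/kg (3). Experiment B used vehicle (4) and 0.5 (3), 5 (1) and 30 mg/kg (3). Experiment C, in the arrays used here, had vehicle (3) and 1 (4), 5 (3) and 10 mg/kg (4). In the arrays used, 0.5 and 30 mg/kg occur in no experiment but B, and 50 mg/kg in none but A. At these doses the dose and the experiment thus cannot be told apart beyond each experiment's own vehicle animals. The titles and source names of the 4 vehicle arrays of experiment B call them vehicle, but a line in their descriptions names 1 mg/kg CPF. They were taken as vehicle, and every change within B given here, as well as the B vehicle means, rests on that reading. In experiment C, 1 vehicle array and 2 at 10 mg/kg carry a label calling them a first repeat, with no word on what was repeated. Another 7 deposited arrays, among them both 30 mg/kg arrays of experiment C, did not share the order of probe sets with these 39 and were not used. In the 39, pairwise correlations of log2 intensity lay between 0.935 and 0.979, and array medians before normalisation ran from 112.2 to 285.6 units. Neuronal markers were present: 9 of 10 listed had a probe set and all 9 passed the filter. In 4 pieces oxytocin, a hypothalamic peptide, lay above a log2 intensity of 11, a point taken up under Gnas.

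G protein alpha subunits bind GTP when a receptor is activated, part from the beta and gamma subunits, and act on enzymes and channels until the GTP is hydrolysed. The Gi and Go group, here Gnai1, Gnai2, Gnao1 and Gnaz, lowers adenylyl cyclase activity and releases the beta and gamma subunits that open potassium channels and close calcium channels, and Go is abundant in brain. Gnas encodes Gs, which stimulates adenylyl cyclase, from an imprinted locus with several promoters. Gnaq and Gna11 activate phospholipase C beta. Muscarinic acetylcholine receptors, through which much of the slow action of acetylcholine in cortex runs, signal through the Gi and Go group or through Gq and G11 according to subtype.

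The promoter windows of Gnao1 and Gnas, from 250 bases before to 50 after an annotated start, are shown because Gnao1 is one of the 2 members with the steepest slope over dose and because Gnas has 3 annotated starts and probe sets that did not vary together. The sequences are RefSeq's for build GRCr8 and were not measured here. Capitals mark TGACGTCA, the cyclic AMP response element, and TATAAA on either strand. A CCAAT motif was also searched on both strands and occurs in none of the 4 windows, against 37.5% of all windows.
Gnao1, chr19:11198388-11198687, minus strand: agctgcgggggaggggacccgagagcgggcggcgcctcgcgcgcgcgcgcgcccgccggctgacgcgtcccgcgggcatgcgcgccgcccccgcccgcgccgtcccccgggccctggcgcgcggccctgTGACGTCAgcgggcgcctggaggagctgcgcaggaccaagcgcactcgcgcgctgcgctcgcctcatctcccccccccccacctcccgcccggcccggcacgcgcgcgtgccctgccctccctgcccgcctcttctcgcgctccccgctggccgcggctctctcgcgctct
Gnas start 1, chr3:183489398-183489697, plus strand: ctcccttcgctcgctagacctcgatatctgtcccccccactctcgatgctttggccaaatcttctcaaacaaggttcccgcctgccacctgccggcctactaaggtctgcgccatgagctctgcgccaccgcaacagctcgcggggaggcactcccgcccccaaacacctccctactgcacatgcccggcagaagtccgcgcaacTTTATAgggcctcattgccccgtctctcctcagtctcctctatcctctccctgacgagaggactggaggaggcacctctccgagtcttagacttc
Gnas start 2, chr3:183502993-183503292, plus strand: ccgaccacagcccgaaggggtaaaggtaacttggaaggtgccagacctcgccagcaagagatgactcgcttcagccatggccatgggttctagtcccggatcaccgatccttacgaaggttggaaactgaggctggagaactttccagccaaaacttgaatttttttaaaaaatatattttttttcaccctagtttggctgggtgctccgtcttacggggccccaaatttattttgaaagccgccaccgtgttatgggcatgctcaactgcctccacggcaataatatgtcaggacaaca
Gnas start 3, chr3:183537089-183537388, plus strand: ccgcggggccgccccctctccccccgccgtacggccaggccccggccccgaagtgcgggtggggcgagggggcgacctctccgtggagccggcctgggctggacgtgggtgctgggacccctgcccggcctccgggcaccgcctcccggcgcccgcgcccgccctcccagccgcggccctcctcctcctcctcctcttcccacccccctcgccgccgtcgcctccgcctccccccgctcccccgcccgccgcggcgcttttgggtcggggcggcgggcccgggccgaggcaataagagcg
The Gnao1 window holds 1 cyclic AMP response element, a motif present in 612 of 33469 windows of this length (1.83%), and 54 CpG, against a median of 7 over all windows. The 3 Gnas windows hold 18, 12 and 41 CpG and no such element, and start 1 holds a TATA motif, which 14.2% of all windows hold. Among the other members with a window, Gnai1, Gnaq, Gna11 and Gnal hold 56, 51, 42 and 21 CpG. GGGCGG, the GC box, occurs 4 times on either strand in the Gnao1 window and 1, 0 and 4 times at Gnas starts 1, 2 and 3. The windows of Gnai1, Gnaq, Gna11 and Gnal hold it 3, 2, 2 and 0 times, and 33.1% of all windows hold it at least once. Of the 9 listed genes 6 have a window in the table, and a match of letters is a description of the sequence, not of binding.

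No alpha subunit passed the test at any dose. With experiment as a term in limma and Benjamini-Hochberg adjustment over 11106 probe sets at 0.05, 0 of 9 member probe sets were called at 0.5, 1, 5, 10, 30 or 50 mg/kg. Over all probe sets the share called was 0% at each dose up to 30 mg/kg and 0.0180% at 50 mg/kg, that is 2 probe sets. At an unadjusted p under 0.05 the members numbered 0, 0, 1, 2, 1 and 3 of 9 at 0.5, 1, 5, 10, 30 and 50 mg/kg, where all probe sets gave 7.63%, 2.53%, 2.50%, 2.67%, 9.27% and 8.01%. The median change of the 9 was -0.04, -0.03, -0.05, 0.02, -0.10 and -0.13 on the log2 scale in that order of doses, with medians over all probe sets between -0.01 and 0.01. The members with an unadjusted p under 0.05 were Gnai2, Gnao1 and 1 of the Gnas probe sets, and Gnai2 and Gnao1 lay lower than vehicle and Gnas higher. All values here are quantile-normalised log2 intensities of tissue RNA, in which fewer cells of a type and less RNA per cell cannot be told apart. No label names a batch within an experiment, and p-values set each change against the spread between these animals.

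**Figure D1:**
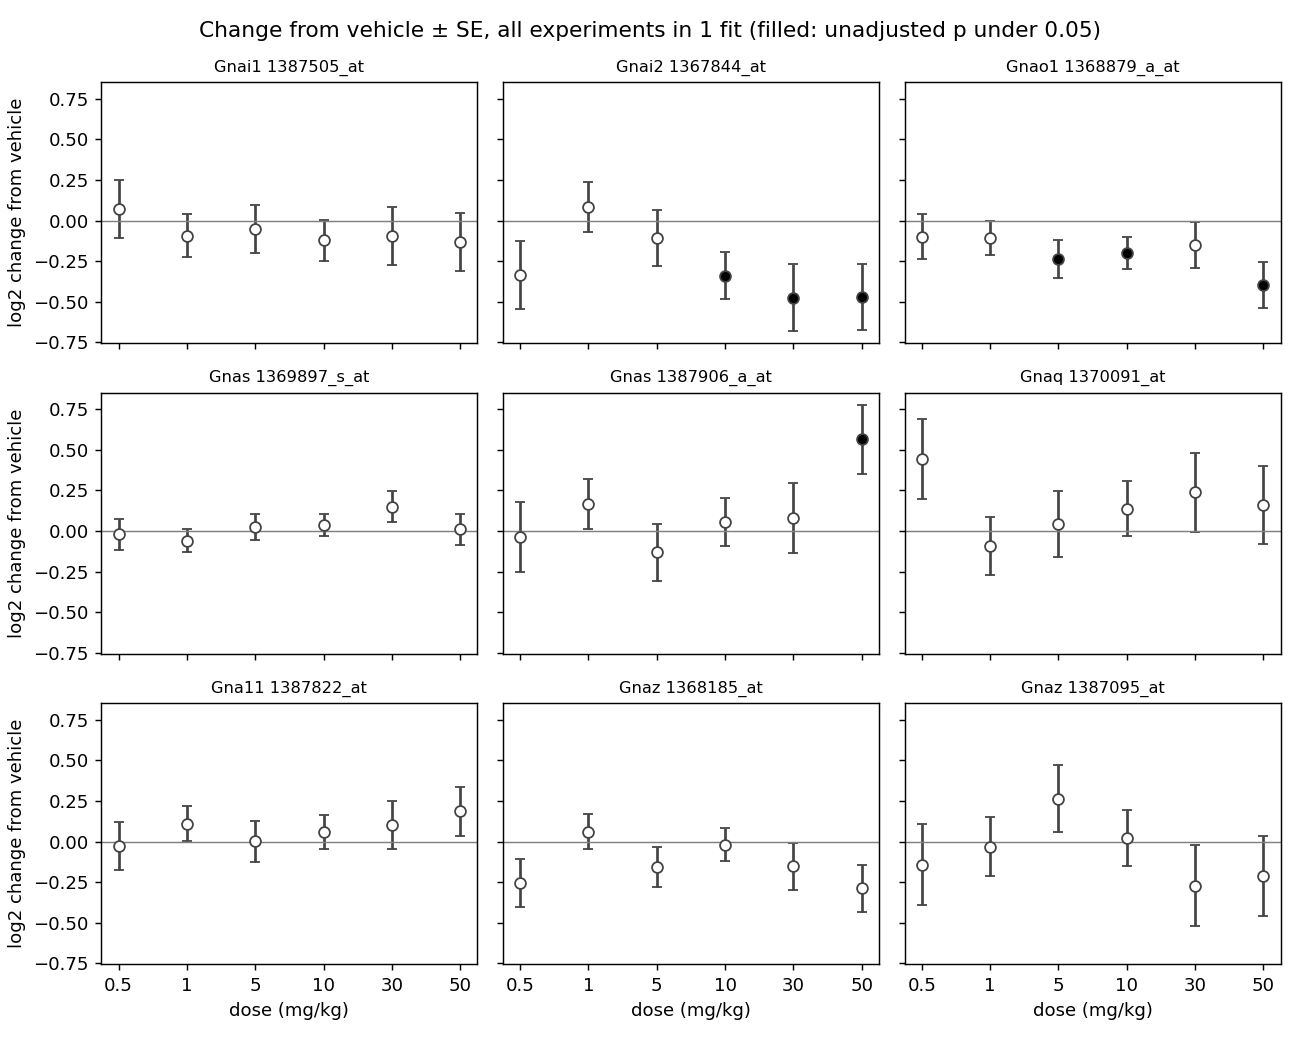
Log2 change from vehicle (vertical axis) at each chlorpyrifos dose in mg/kg (horizontal axis) for the 9 member probe sets, in 1 limma fit with experiment as a term; points are estimates, bars are SE, and filled points have an unadjusted p under 0.05. Gnai2 lies at -0.34, -0.48 and -0.47 at 10, 30 and 50 mg/kg, Gnao1 at -0.40 and Gnas 1387906_a_at at 0.57 at 50 mg/kg, and none passes adjustment.

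Gnai2 encodes a Gi alpha subunit that inhibits adenylyl cyclase and is read by 1367844_at. In experiment A its log2 intensity was 10.35, 10.19 and 9.89 in vehicle animals, 10.21, 10.43 and 9.95 at 1 mg/kg, 10.08, 9.56, 9.75, 9.85 and 9.51 in the 10 mg/kg animals, and 9.65, 9.99 and 9.28 at 50 mg/kg. The lowest 50 mg/kg animal was the lowest of all 39, yet 1 of the 3 lay above the lowest vehicle animal, so the groups overlap. Experiment B gave 10.80, 10.27, 10.86 and 10.79 in vehicle animals, 10.62, 10.38 and 9.76 at 0.5 mg/kg, 10.11 in the 5 mg/kg animal, and 10.52, 10.06 and 9.76 at 30 mg/kg. Vehicle animal 2 stood apart from the other 3 of its group, and all 7 dosed animals lay below those 3. In experiment C it was 9.71, 10.20 and 10.01 in vehicle animals, 10.10, 10.28, 10.13 and 10.32 at 1 mg/kg, 10.33, 9.99 and 10.11 in the 5 mg/kg animals, and 10.14, 10.20, 9.40 and 9.53 at 10 mg/kg. There the 10 mg/kg animals split, with 2 among the vehicle values and 2 below them.

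The Gnai2 estimates were -0.34 ± 0.21 at 0.5, 0.08 ± 0.15 at 1, -0.11 ± 0.17 at 5, -0.34 ± 0.14 at 10, -0.48 ± 0.21 at 30 and -0.47 ± 0.21 at 50 mg/kg (log2 difference from vehicle ± SE). The estimates at 10, 30 and 50 mg/kg are 0.79, 0.719 and 0.721 of vehicle as ratios. Their unadjusted p-values were 0.0246, 0.0287 and 0.0283, and their limma adjusted p-values 0.999, 0.475 and 0.555. Within experiments the change was -0.50 ± 0.23 at 50 mg/kg in A (adjusted p = 0.464, limma), -0.57 ± 0.21 at 30 mg/kg in B (adjusted p = 0.337, limma), -0.39 ± 0.20 at 10 mg/kg in A and -0.16 ± 0.21 at 10 mg/kg in C. The difference of the 10 mg/kg effect, A minus C, was -0.23 ± 0.29, with an unadjusted p-value of 0.43 in limma. Single animals carried much of the size: the 50 mg/kg change was -0.29 without animal 4 of that group and -0.65 without animal 3, and the 30 mg/kg change was -0.30 without animal 4 and -0.68 without animal 2 of its group.

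Over the whole dose range Gnai2 had a slope of -0.092 ± 0.024 per unit of log2(dose + 1), with an unadjusted p-value of 0.000504, rank 22 of 11106 probe sets, and a limma adjusted p of 0.247. The share of all probe sets called for this trend was 0%, and 852 (7.67%) had an unadjusted p under 0.05. The slope was -0.11 ± 0.04 in experiment A (n = 14 arrays), -0.09 ± 0.04 in experiment B (n = 11) and -0.06 ± 0.06 in experiment C (n = 14), so it was negative in each, and in C it lay within 1 SE of 0. It stayed between -0.105 and -0.083 when each of the 39 arrays was left out in turn, and without experiment B, whose vehicle labels conflict, it was -0.092. Striatal markers read lower for 9 of 9 at 0.5, 10 and 30 mg/kg (medians -0.69, -0.34 and -0.86), the doses at which Gnai2 read lower as well, and for 5 of 9 at 1 mg/kg (median -0.05). They read higher for 8 of 9 at 5 mg/kg (median 0.15) and 9 of 9 at 50 mg/kg (median 0.58), where the Gnai2 estimates were below vehicle. With a striatal marker score as a covariate the slope was -0.094, the 30 mg/kg change was -0.57 with an unadjusted p-value of 0.00903, and the 50 mg/kg change was -0.41 with an unadjusted p-value of 0.0515 in limma. With the beta-actin 3'/5' ratio, a measure of RNA integrity, the slope was -0.087. A single array at 4.72, against 1.23 to 2.15 in the others, weighs most on that covariate. This fit thus says little on differences in the ratio among the other arrays.

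**Figure D2:**
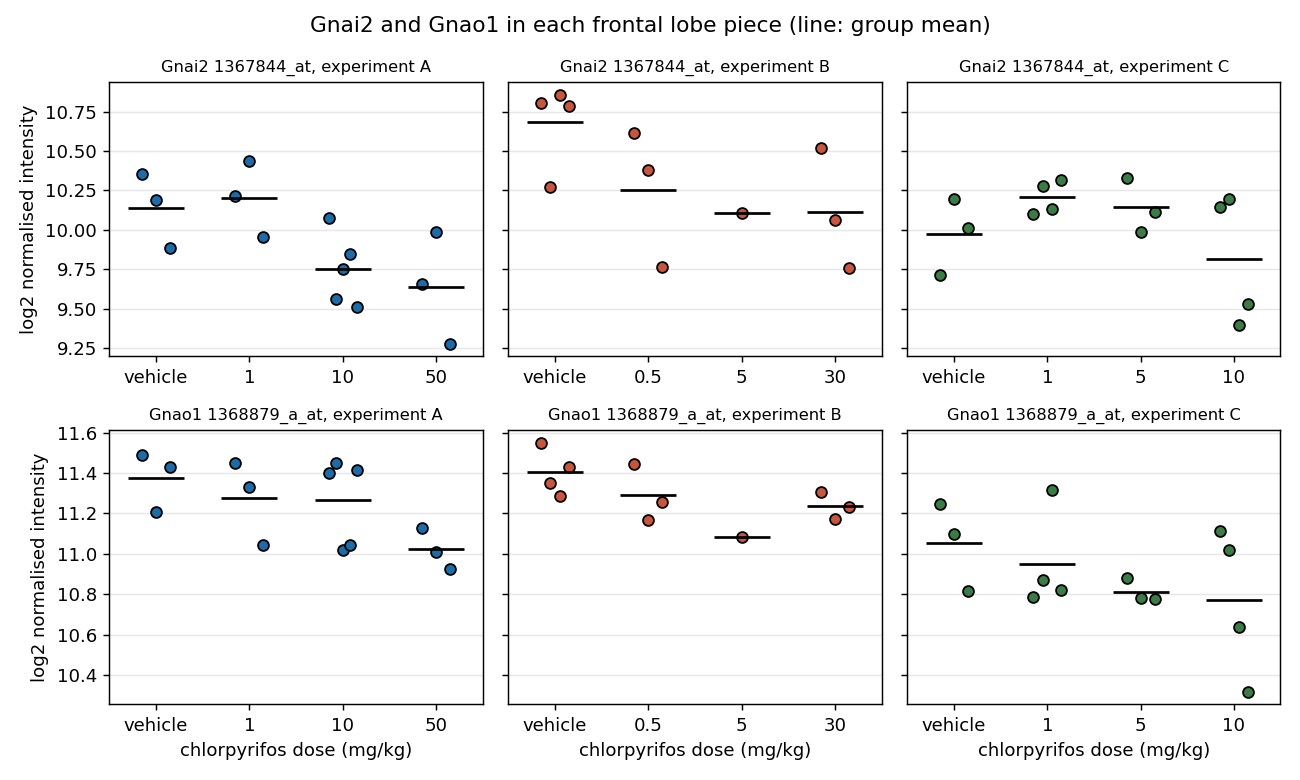
Log2 normalised intensity (vertical axis) of Gnai2 1367844_at (upper row) and Gnao1 1368879_a_at (lower row) in each animal, by chlorpyrifos dose in mg/kg (horizontal axis) and experiment (columns); points are animals and lines are group means. The 3 Gnao1 values at 50 mg/kg (10.92 to 11.13) lie below the 3 vehicle values of experiment A (11.21 to 11.49), while Gnai2 groups overlap in A.

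Gnao1 encodes the Go alpha subunit and is read by 1368879_a_at. In experiment A it was 11.49, 11.21 and 11.43 in vehicle animals, 11.45, 11.33 and 11.04 at 1 mg/kg, 11.40, 11.45, 11.02, 11.04 and 11.42 in the 10 mg/kg animals, and 11.13, 11.01 and 10.92 at 50 mg/kg. All 3 animals at 50 mg/kg lay below all 3 vehicle animals. Experiment B gave 11.55, 11.35, 11.29 and 11.43 in vehicle animals, 11.45, 11.17 and 11.26 at 0.5 mg/kg, 11.08 at 5 mg/kg, and 11.30, 11.17 and 11.23 at 30 mg/kg. Here the single 5 mg/kg animal was the lowest of the experiment, and the 30 mg/kg group overlapped vehicle by 1 animal. In experiment C it was 11.25, 11.10 and 10.82 in vehicle animals, 10.79, 10.87, 11.32 and 10.82 at 1 mg/kg, 10.88, 10.78 and 10.78 in the 5 mg/kg animals, and 11.11, 11.02, 10.64 and 10.32 at 10 mg/kg. Every dosed group of C overlapped vehicle.

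Gnao1 lay lower than vehicle at all 6 doses. The estimates were -0.10 ± 0.14 at 0.5, -0.11 ± 0.10 at 1, -0.24 ± 0.12 at 5, -0.20 ± 0.10 at 10, -0.15 ± 0.14 at 30 and -0.40 ± 0.14 at 50 mg/kg. The 50 mg/kg value is a ratio of 0.76 to vehicle, with an unadjusted p-value of 0.00751 and a limma adjusted p of 0.427. At 5 and 10 mg/kg the unadjusted p-values were 0.0495 and 0.0493 and the adjusted ones 1 and 0.999 in limma. The 10 mg/kg change was -0.12 without animal 4 of that group in experiment C, and -0.11 without experiment C, with an unadjusted p-value of 0.334. Within experiments, the change was -0.35 ± 0.16 at 50 mg/kg in A and -0.28 ± 0.15 at 10 mg/kg in C, against -0.11 ± 0.14 at 10 mg/kg in A. Its slope was -0.05 ± 0.016 per unit of log2(dose + 1) (unadjusted p-value 0.00344, adjusted p = 0.36 in limma). By experiment it was -0.05 ± 0.02 in A, -0.03 ± 0.03 in B and -0.08 ± 0.04 in C, and without experiment B it was -0.0604. The pieces at 50 mg/kg held more hypothalamic peptide signal (below), and with that score as a covariate the 50 mg/kg change was -0.33, with an unadjusted p-value of 0.0512.

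The remaining Gi and Go members, Gnai1 and Gnaz, had no unadjusted p under 0.05 at any dose with experiment as a term. Gnai1 1387505_at, another Gi alpha subunit, had its estimate farthest from 0 at 50 mg/kg, at -0.13 ± 0.18. Gnaz encodes Gz, an alpha subunit of this group that pertussis toxin does not modify, and has 2 probe sets. Gnaz 1368185_at was at -0.29 ± 0.15 at 50 mg/kg with an unadjusted p-value of 0.0557, and within experiment A at -0.35 ± 0.16 (unadjusted p-value 0.0321, adjusted p = 0.458, limma). Its values there were 9.08, 8.76 and 8.47 at 50 mg/kg, against 9.09, 9.27 and 8.998 in vehicle animals. The groups overlapped by 1 animal. The change in A was -0.20 without animal 4 of the 50 mg/kg group, the lowest, and -0.22 with the hypothalamic score as a covariate, with an unadjusted p-value of 0.231. Experiment B gave 8.98, 8.63 and 9.11 at 0.5 mg/kg, against 9.04, 9.40, 9.30 and 9.14 in vehicle animals, a change of -0.31 ± 0.15 (adjusted p = 0.728, limma). These groups overlapped as well, and without the lowest 0.5 mg/kg animal the change was -0.17. Gnaz 1387095_at ranged from -0.27 ± 0.25 at 30 mg/kg to 0.27 ± 0.21 at 5 mg/kg.

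Within single experiments 0 of 9 members were called in any of 9 contrasts. The share of all probe sets called was 0% in 6 of these contrasts, 0.00900% at 10 mg/kg and 0.0360% at 50 mg/kg in experiment A, and 0.0180% at 5 mg/kg in experiment B, where 1 array stood for the dose. That array read lower than the mean of its vehicle animals for 9 of 9 members, with a median of -0.32, whereas 48.5% of all probe sets read lower there. Before scaling, its trimmed mean intensity was 205.2 where the other arrays used were at 500.1. The 3 animals at 5 mg/kg in experiment C read higher in mean than vehicle for 8 of 9. For the differences of the 1 and the 10 mg/kg effect between A and C, 0 of 9 members and 0% of all probe sets were called in either.

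Gnas encodes the Gs alpha subunit, and its 2 probe sets past the filter gave unlike values at 50 mg/kg. Gnas 1369897_s_at spanned 13.08 to 13.80 over the 39 arrays, the smallest SD of any member. Its mean lay at percentile 99.92 of all probe sets, near the top of the scale, and the part of this in its small spread was not tested. Its estimates lay between -0.06 ± 0.07 at 1 mg/kg and 0.15 ± 0.10 at 30 mg/kg. Gnas 1387906_a_at was 10.25, 10.99 and 10.73 at 50 mg/kg, against 10.11, 10.05 and 9.87 in vehicle animals of experiment A. All 3 dosed values lay above all 3 vehicle values. The change was 0.57 ± 0.21 with experiment as a term (a ratio of 1.48, unadjusted p-value 0.0116, adjusted p = 0.466, limma) and 0.65 ± 0.24 within A (adjusted p = 0.317, limma). At 30 mg/kg it was 0.08 ± 0.21, and at the lower doses between -0.13 and 0.17. The files do not say which Gnas transcripts each probe set reads.

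The pieces at 50 mg/kg also differed from vehicle in hypothalamic peptide signal. Of 7 listed hypothalamic markers 6 have a probe set and 3 passed the filter, namely oxytocin (Oxt), vasopressin (Avp) and Pmch, the precursor of melanin-concentrating hormone. All 3 were higher at 50 mg/kg (median 3.20), and 1 of them passed the test. The summed intensity of all 6 with a probe set ran from 1123 to 14107 in the 50 mg/kg pieces, against 459 to 1321 in vehicle pieces of experiment A. Oxt was 7.94, 11.61 and 12.18 in the 50 mg/kg animals whose Gnas 1387906_a_at values are given above in the same order. The animal with the highest Oxt of these was not the one with the highest Gnas 1387906_a_at value. Elsewhere Oxt exceeded 11 in 1 mg/kg animal 2 of experiment A (12.02), where this probe set was 10.72, and in vehicle animal 3 of experiment C (11.73), where it was 10.17. In both animals this was the highest Gnas 1387906_a_at value of the group. In 1 mg/kg animal 4 of experiment C, with the next highest Oxt of all 39 pieces (8.80), it was the lowest of its group (9.26). Olfactory bulb markers were also higher at 50 mg/kg, 3 of 3 with a median of 0.84, as were 9 of 9 striatal markers. Adding the hypothalamic score to the fit gave a 50 mg/kg change of 0.22 (adjusted p = 1, limma), with an unadjusted p-value of 0.324, and adding the striatal score instead gave 0.67. Without 50 mg/kg animal 3 the change was 0.40. The hypothalamic score, added after seeing the data, was 2.30 and 2.22 in 50 mg/kg animals 3 and 4. Score and dose are thus partly tied in these pieces and cannot be told apart there. The part of tissue make-up in the Gnas difference was not tested further.

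**Figure D3:**
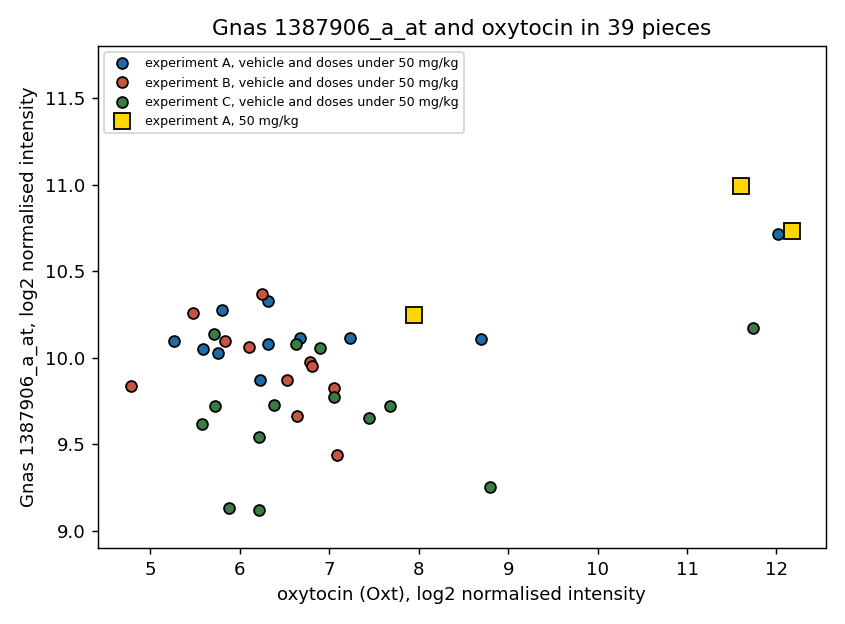
Gnas 1387906_a_at (vertical axis) against oxytocin (horizontal axis), both log2 normalised intensity, in 39 frontal lobe pieces coloured by experiment, with the 3 pieces at 50 mg/kg as squares. The 4 pieces with oxytocin above 11 read 10.17 to 10.99 for Gnas.

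Gnaq and Gna11, the alpha subunits that activate phospholipase C beta, had no unadjusted p under 0.05 at any dose. Gnaq 1370091_at was 0.45 ± 0.24 from vehicle at 0.5 mg/kg with an unadjusted p-value of 0.0776, its largest estimate, and between -0.09 and 0.24 at the other doses. The -0.09, at 1 mg/kg, turned to 0.12 ± 0.13 without the array described next. Gna11 1387822_at lay between -0.03 ± 0.15 at 0.5 mg/kg and 0.19 ± 0.15 at 50 mg/kg. Without that same array its 1 mg/kg estimate was 0.22 ± 0.09, with an unadjusted p-value of 0.0215 and an adjusted p of 0.999 in limma, against 0.11 ± 0.11 with it. Within experiment C the Gna11 change at 1 mg/kg was 0.45 ± 0.13 without that array (unadjusted p-value 0.00106, adjusted p = 0.346, limma). It was 0.24 ± 0.16 in C with the array, and 0.03 ± 0.17 in experiment A. With standard errors of this size, smaller differences were not detectable in these groups.

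A single array set the extremes of most members. The share of all probe sets with their extreme in that array was not counted, so this is not read as a trait of the members. In 1 mg/kg animal 1 of experiment C the beta-actin 3'/5' ratio was 4.72, against 1.23 to 2.15 in the other 38 arrays, and the Gapdh ratio was 2.42, against 1.01 to 1.34. In these controls a high ratio means that probes near the 3' end outshine those near the 5' end, as in degraded or incompletely copied RNA. That array held the lowest of 39 values for Gnai1 (9.42), Gnas 1369897_s_at (13.08), Gnaq (6.56), Gna11 (7.55) and Gnaz 1387095_at (7.18), and the highest for Gnaz 1368185_at (9.53). The 3 other animals of its group read 7.66 to 8.43 for Gnaq and 8.42 to 9.02 for Gnaz 1387095_at. Gnai2, at 10.10, and Gnao1, at 10.79, were not extreme in it. Thus the 2 Gnaz probe sets, which are annotated to the same gene, lay at opposite ends of their ranges in this array. Without it the 1 mg/kg estimates of Gnai1 and Gnaz 1387095_at were 0.03 and 0.18, against -0.09 and -0.03 with it, and none of the 9 members passed adjustment. The part of RNA integrity in these values was not tested.

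**Figure D4:**
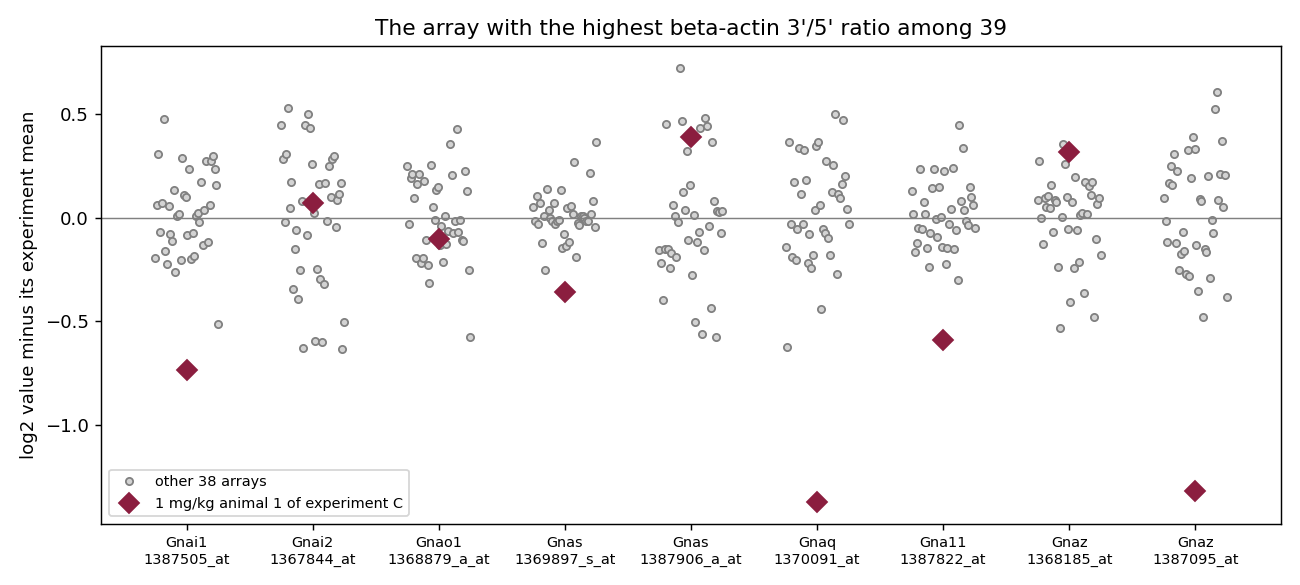
Log2 value minus the mean of its experiment (vertical axis) for the 9 member probe sets (horizontal axis); the diamond is 1 mg/kg animal 1 of experiment C, whose beta-actin 3'/5' ratio was 4.72, and grey points are the other 38 arrays. The diamond is the lowest log2 value of 39 for 5 probe sets and the highest for Gnaz 1368185_at (9.53).

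Pairs of members were compared over the 39 arrays after subtracting each experiment's mean, 36 pairs in all, with permutation within experiments (100000 draws, two-sided). In 4 pairs the adjusted p of Pearson's r was under 0.05. Gnai2 and Gnaz 1387095_at gave r = 0.46 (adjusted p = 0.0396) and Spearman's rho = 0.65 (p = 1e-05, the smallest these draws can give, adjusted p = 0.00036). Without the 2 arrays farthest from the Gnai2 median r was 0.51, and by experiment it was 0.65 in A, 0.79 in B and 0.25 in C. Without the array of high beta-actin ratio it was 0.63. Gnai2 and Gnao1 gave r = 0.43 (adjusted p = 0.0457) and rho = 0.46 (adjusted p = 0.0617) by the same permutation test. By experiment r was 0.38, 0.64 and 0.44 in A, B and C, without the 2 farthest arrays it was 0.34, and with each dose group's mean subtracted it was 0.31.

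The other 2 pairs rested on the array with the high ratio. Gnai1 and Gnaq gave r = 0.53 with it (adjusted p = 0.0457, permutation) and 0.27 without it, and Gnai1 and Gnaz 1387095_at gave 0.56 (adjusted p = 0.0396, permutation) and 0.35. Their Spearman values, 0.36 and 0.40, had adjusted p-values of 0.251 and 0.171. The 2 probe sets of Gnaz gave r = 0.04, rho = 0.22 (adjusted p of rho = 0.665, permutation), and the 2 of Gnas gave r = 0.13 and rho = 0.17 (adjusted p of rho = 0.665, permutation).

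The genes most like each member were taken by the same measure, r over 39 arrays with experiment means subtracted, as a description with no test. For Gnai2 they were Atp6v0a1, a subunit of the vacuolar proton pump (0.76), Pfkl, a phosphofructokinase (0.75), Cacnb3, a calcium channel beta subunit (0.75), Spryd3 (0.74) and Ube2n, a ubiquitin-conjugating enzyme (0.73). Leaving out the 2 arrays farthest from the Gnai2 median kept these between 0.70 and 0.75. For Gnao1 they were Calcoco1 (0.60), Map2, a dendritic microtubule protein (0.60), Epas1, a hypoxia-inducible transcription factor (0.59), Celf2, an RNA-binding protein (0.58) and Necab1, a calcium-binding protein (0.58). Without the 2 arrays farthest from the Gnao1 median these ran from 0.45 for Necab1 to 0.59 for Calcoco1. Among all pairs of 1111 probe sets taken at even steps through the table, 5% had r above 0.35. The genes named here were picked as the highest r over all single-symbol probe sets. That share of unpicked pairs is thus no yardstick for them, and what such picking gives was not tested.

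For the remaining members the most like genes were Wdr7 (0.81) and Rtn3 (0.80) for Gnai1, Tom1 (0.68) and Cfap418 (0.67) for Gnas 1369897_s_at, Stag3 (0.73) and Grb2 (0.73) for Gnaq, Ncs1 (0.70) and Plbd2 (0.69) for Gna11, and Armcx5 (0.70) and Ywhab (0.66) for Gnaz 1368185_at. For Gnaq the values dropped to 0.33 and 0.45 without the 2 arrays farthest from its median, and for Gnai1 to 0.64 and 0.66. They dropped likewise to 0.52 and 0.57 for Gnas 1369897_s_at and to 0.56 and 0.48 for Gna11. For Gnaz 1368185_at they were 0.72 and 0.62.

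The vehicle animals show how far the 3 experiments differ with no dose. By a moderated F test 861 of 11106 probe sets (7.75%) differed between them at an adjusted p under 0.05, and 0 of 9 members did. Gnai2 came nearest, with means of 10.14 in A, 10.68 in B and 9.97 in C (unadjusted p-value 0.00487, adjusted p = 0.0572, limma). The vehicle mean of B stood 0.71 above that of C, more than any dose estimate of Gnai2. Gnai1 followed (10.70, 10.70 and 10.21 in A, B and C, unadjusted p-value 0.0197, adjusted p = 0.129, limma), and the other 7 had an unadjusted p over 0.05. The beta-actin ratio of B vehicle animals, 1.66 to 2.15, lay above that of every dosed animal of B, 1.32 to 1.61. With that ratio in the fit the Gnai2 change at 30 mg/kg within B was -0.56. The ratio was 4.72 in 1 array of experiment C, which weighs most on this covariate. What the fit removes for the gap in B thus rests largely on that array. The part of the ratio in the Gnai2 difference within B was not tested further.

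**Figure D5:**
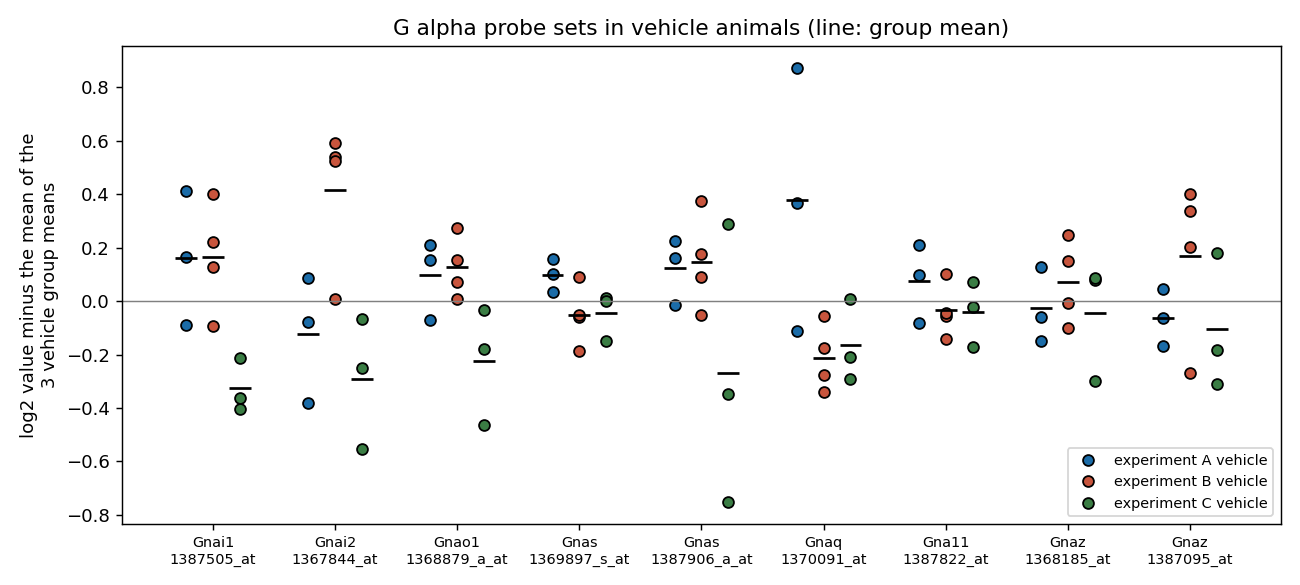
Log2 value minus the mean of the 3 vehicle group means (vertical axis) for the 9 member probe sets in vehicle animals of experiments A (n = 3), B (n = 4) and C (n = 3); points are animals and lines are group means. Gnai2 stands highest in B (mean 10.68), and Gnai1 lowest in C (mean 10.21).

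Genes that act with the alpha subunits were taken as lists of other alpha subunits, beta and gamma subunits, regulators, effectors, the cyclic nucleotide pathway, and receptor kinases and arrestins, 60 measured genes in all. By limma 0 of 60 passed the adjusted test in either direction at any dose or for the trend, where 0.0180% of all probe sets were called at 50 mg/kg and 0% at the other doses and for the trend. At an unadjusted p under 0.05 there were 7, 1, 2, 0, 7 and 7 of the 60 at 0.5, 1, 5, 10, 30 and 50 mg/kg, against 7.63%, 2.53%, 2.50%, 2.67%, 9.27% and 8.01% of all probe sets. The share of all probe sets that read lower was 49.0%, 52.0%, 49.9%, 49.7%, 48.5% and 48.5% in that order. Of beta and gamma subunits, 8, 6, 5, 6, 7 and 1 of 9 read lower, with the median farthest from 0 at 0.5 mg/kg (-0.24) and medians of -0.14 at 30 and 0.06 at 50 mg/kg. Gng11, a gamma subunit, was 0.34 ± 0.19 from vehicle at 1 mg/kg and 0.88 ± 0.26 at 50 mg/kg (adjusted p = 0.28, limma), and Gng3, a neuronal gamma subunit, was 0.35 ± 0.11 at 30 mg/kg (adjusted p = 0.268, limma). Of effectors, the adenylyl cyclases, phospholipases and potassium channels that the subunits act on, 4, 8, 5, 6, 2 and 10 of 13 read lower at the 6 doses, with medians of 0.16 at 0.5, 0.08 at 30 and -0.08 at 50 mg/kg and between -0.06 and 0.05 at the others.

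In the cyclic nucleotide pathway 10, 13, 13, 12, 13 and 11 of 17 genes read lower at 0.5, 1, 5, 10, 30 and 50 mg/kg, with medians between -0.06 and -0.01. For the slope over dose 15 of 17 were below 0, where 47.2% of all probe sets were, and 1 of the 17 had an unadjusted p under 0.05. Striatal markers were below 0 for 8 of 9 for the same slope (median -0.0149), and Pde10a is in both lists. The part of striatal tissue in this count was not tested. Pde1a, a calmodulin-dependent phosphodiesterase, was -0.75 ± 0.26 at 50 mg/kg (adjusted p = 0.386, limma), and Pde3b, a phosphodiesterase that cyclic GMP inhibits, was -0.43 ± 0.13 at 5 mg/kg (adjusted p = 1, limma). Among receptor kinases, which mark active receptors for arrestin, Grk6 was 0.84 ± 0.29 at 0.5 mg/kg and 1.00 ± 0.29 at 30 mg/kg (adjusted p = 0.504 and 0.242, limma). Both of these doses are from experiment B and share its vehicle animals. Grk5 was 0.29 ± 0.13 at 5 mg/kg and -0.22 ± 0.11 at 10 mg/kg. Gnb4, a beta subunit, was -0.36 ± 0.16 at 1 and -0.27 ± 0.15 at 10 mg/kg, and Gna15, an alpha subunit of the Gq class known from blood cells, was -0.61 ± 0.21 at 0.5 mg/kg. Over the dose range Gng11 had a slope of 0.088 ± 0.034 and Gng3 of 0.032 ± 0.013 per unit of log2(dose + 1). The 1 mg/kg values of Gnb4 and Gng11 include the array with the high beta-actin ratio, and values without it are not given. None of these genes passed adjustment.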

How the data were processed

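Gene expression was measured in frontal lobe on 46 Affymetrix rat arrays, 1 per animal. The authors deposited 1 table of linear signal intensity for 15923 probe sets, with no detection calls. The sources used here do not name the software behind them. The number of arrays limits the precision.

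Groups follow the titles and source names, also for the 4 vehicle arrays of experiment B, whose descriptions name 1 mg/kg. The 39 arrays whose log2 intensities had a median correlation of 0.5 or more with the others were used. Their medians were made equal, values under the 5th percentile were raised to it (an intensity of 10.66), and log2 values were quantile normalised. The 57 controls and the dimmest 30 percent by mean were left out, leaving 11106. By the platform annotation, 12783 have a single symbol, 312 list several genes and 2771 list no gene, and 12748 of the first kind matched the gene table by identifier.

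Fits used limma 3.58.1 (R 4.3.3) with lmFit and eBayes (trend=TRUE), two-sided, and Benjamini-Hochberg adjustment over all 11106: dose as a factor with experiment as a term, a slope over log2(dose + 1), and 1 mean per experiment and dose for changes within an experiment, for the differences between A and C, and for an F test of the vehicle animals. The script was tested on simulated data. Correlations, promoter motifs and figures used python 3.11.15, numpy 2.4.6, pandas 2.3.3 and matplotlib 3.10.9. Gnai2 and Gnao1 are given in every animal, other members where an unadjusted p was under 0.05, the 5 most like genes for Gnai2 and Gnao1 and the 2 most like for the others, and the 2 pathway genes of smallest p in each comparison, over all lists. Members, lists and tests were chosen with earlier results of these data known. Alternatives were other normalisation, floors, filters and priors, array weights, a replicate block, leaving out experiments or arrays, and scores of tissue make-up and RNA integrity as covariates.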

Additional observations from a re-analysis of the deposited data

Results flagged for a closer look

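Of 40 combinations of a member probe set and a group of 4 or more animals, 4 held an animal far from the rest by Dixon's criterion, where chance gives about 5%. Gnai2 was 10.27 in vehicle animal 2 of experiment B, and the nearest other vehicle animal of B was at 10.79. Without it the Gnai2 change at 30 mg/kg within B was -0.70. Gnao1 was 11.32 in 1 mg/kg animal 3 of experiment C, with the nearest other at 10.87. Gnas 1369897_s_at was 13.08 in 1 mg/kg animal 1 of C, the array with the high beta-actin ratio, with the nearest other at 13.43. Gnas 1387906_a_at was 9.62 in 10 mg/kg animal 3 of C, with the nearest other at 9.72 in a tightly spaced group.

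At 5 mg/kg the single animal of experiment B and the 3 animals of experiment C lay on opposite sides of their own vehicle means for 5 member probe sets. The changes in B and C were -0.57 and 0.17 for Gnai2, -0.11 and 0.14 for Gnas 1369897_s_at, -0.32 and 0.17 for Gnaq, -0.16 and 0.17 for Gna11, and -0.0686 and 0.39 for Gnaz 1387095_at. These differences were not tested, since 1 animal stands for B. At 1 mg/kg Gnaz 1368185_at was at -0.11 in A and 0.27 in C, with every animal of each on its own side. The test of that difference gave an unadjusted p-value of 0.0823 and an adjusted p of 0.738 in limma.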

How the results depend on the processing

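None of the 15 member changes with an unadjusted p under 0.05 reversed or passed adjustment under any alternative, the adjusted p in limma running from 0.0641 upward. The member count stayed at 0 in every dose comparison. It moved between the vehicle animals, to 2 with array weights, to 1 with the beta-actin ratio as a covariate and with the replicate block, and from 0 to 1 over single arrays left out (without, in experiment B, vehicle animal 2, animal 4 of the 0.5 mg/kg group or animal 2 of the 30 mg/kg group, and in experiment C animal 3 of the 10 mg/kg group). Same-numbered animals did not vary together more than others (median r 0.0035 over 43 pairs, against 0.0029 over 135 pairs of different number). No label says whether the numbers mark a shared day or handling, and these correlations cannot settle it. With the replicate block 4 probe sets were called at 50 mg/kg, and 0 at 10 mg/kg in A and at 5 mg/kg in B.

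Counts over all probe sets moved as follows. Without quantile normalisation they were 1 at 50 mg/kg and 0 at 10 mg/kg in A. With the floor at the 20th percentile they were 13 at 50 mg/kg in A and 1 at 5 mg/kg in B. With no filter they were 2 at 0.5, 11 at 30 and 0 at 50 mg/kg, and within A 0 at 50 and within B 3, 8 and 15 at 0.5, 5 and 30 mg/kg. With the filter at the 50th percentile they were 1 at 50 mg/kg, 0 at 10 in A, and 0 at 5 and 4 at 30 mg/kg in B. With array weights they were 27 at 30, 13 at 50 mg/kg and 3 for the trend, within A 3 at 1 and 24 at 50, within B 23 at 30 and within C 4 at 5 mg/kg, and 1527 between vehicle animals.

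Without experiment A there was 1 at 30 mg/kg and 1 for the trend, and in B 1, 1 and 3 at 0.5, 5 and 30 mg/kg. Without B there were 0 at 50 mg/kg, 1 for the trend, 9 at 50 in A and 1 at 10 mg/kg in C. Without C there were 6 at 30, 66 at 50 mg/kg and 100 for the trend, and within experiments 0 at 10 and 66 at 50 in A and 0 at 5 and 6 at 30 mg/kg in B. Without the arrays labelled as a first repeat there were 0 at 10 in A, 1 at 5 in B, 1 at 10 mg/kg in C and 535 between vehicle animals. With the striatal score there were 1 at 50 mg/kg and 7 at 30 in B. With the hypothalamic score, added after seeing the data, there were 1 at 50 mg/kg, 0 at 10 and 1 at 50 in A, and 499 between vehicle animals. With the beta-actin ratio, also added later, there were 1 for the trend, 1 at 1 and 12 at 50 in A and 19 at 30 mg/kg in B. The cause of these moves was not tested.

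Over single arrays left out, counts ran from 0 to 5 at 0.5, 0 to 4 at 30, 0 to 4 at 50 mg/kg and 0 to 2 for the trend. Within experiments they ran in A from 0 to 1 at 1, 0 to 1 at 10 and 0 to 56 at 50 mg/kg, in B from 0 to 2 at 0.5, 0 to 4 at 5 and 0 to 15 at 30 mg/kg, and in C from 0 to 1 at each of 1, 5 and 10 mg/kg. The difference of the 10 mg/kg effect ran from 0 to 2, and the vehicle animals from 290 to 1138.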

Other observations

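The pathway genes with the 2 smallest p-values in each comparison within an experiment, or between A and C, are given as values, none past adjustment in limma. Adcy2, an adenylyl cyclase that beta and gamma subunits stimulate, gave, in experiment A, -0.29 ± 0.11 at 1 mg/kg, -0.20 ± 0.10 at 10 mg/kg and then -0.40 ± 0.11 at 50 mg/kg (adjusted p = 0.165 at 50 mg/kg), and its 10 mg/kg effect, A minus C, was -0.49 ± 0.14 (adjusted p = 0.595). Kcnj9, a subunit of G protein-gated potassium channels, gave, in experiment C, 0.73 ± 0.26 at 5 mg/kg, and 0.71 ± 0.25 at 10 mg/kg (adjusted p = 0.692 and 0.551). All doses of an experiment share its vehicle animals, so such values of 1 gene, for Adcy2, Kcnj9 and the genes below, are not independent. Rgs7, a regulator that speeds GTP hydrolysis on Gi and Go subunits, was 0.35 ± 0.12 at 1 mg/kg in C, with a 1 mg/kg effect, A minus C, of -0.57 ± 0.18, and Rgs3, another regulator of this kind, was -0.51 ± 0.18 at 10 mg/kg in C. Prkaca, the catalytic subunit of protein kinase A, was -0.74 ± 0.24 in the single 5 mg/kg animal of experiment B against its vehicle. Pde3b, a phosphodiesterase, was -0.75 ± 0.23 in that animal (adjusted p = 0.394) and -0.49 ± 0.16 at 0.5 mg/kg in B (adjusted p = 0.53). Gng10, a gamma subunit, was -0.35 ± 0.11 at 1 mg/kg in C (adjusted p = 0.578), and its 1 mg/kg effect, A minus C, was 0.57 ± 0.16 (adjusted p = 0.486). The 1 mg/kg values of Rgs7 and Gng10 include the array with the high beta-actin ratio, and values without it are not given. Gng11, another gamma subunit, was 0.93 ± 0.27 at 50 mg/kg in A (adjusted p = 0.189). In B the receptor kinase Grk6 gave 0.82 ± 0.31 in the 0.5 mg/kg group. The 30 mg/kg group of B gave 0.98 ± 0.31 for Grk6, and Gng3 was 0.34 ± 0.11 at 30 mg/kg. In A the phospholipase Plcb4 was -0.48 ± 0.21 at 1 mg/kg, and Pcp2, a regulator of the alpha subunit cycle, was 0.72 ± 0.50 at 10 mg/kg. Prkar1b, a regulatory subunit of protein kinase A, was 0.26 ± 0.10 at 5 mg/kg in C. The 10 mg/kg effect of Gna12, another alpha subunit, was 0.53 ± 0.19, A minus C.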
